A study of Mus musculus with 48 samples.

Results

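The comparison set ATF7+/- offspring against ATF7+/+ offspring of sires that had eaten a low protein diet. Its members were the 8 arrays labelled ATF7+/- and the 8 labelled ATF7+/+ with that paternal diet, 16 of the 48 liver arrays of the series. RNA came from the median lobe of the liver of F1 mice, male or female, aged 3 weeks, and the sires had been on the diet between 3 and 12 weeks of age. Differences are ATF7+/- minus ATF7+/+ on the log2 scale, so a difference of 1 is a doubling. The diet of the sire was the same in both groups, and the labels call the 8 arrays of a group separate biological experiments. They give no sex per animal, no genotype of the sire or the dam, no description of the Atf7 allele, and nothing that sets ATF7+/+ apart from the wild-type offspring also present in the series. ATF7+/- and ATF7+/+ offspring of sires on a control diet share no array with these 16 and are used below as other samples of the same genotype labels.

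ATF7 is a transcription factor of the ATF2 family, with a basic leucine zipper that binds cAMP response element type sequences. It is known to recruit histone H3 lysine 9 methyltransferases to its targets, and the stress kinase p38 phosphorylates it, which releases it from chromatin. In mice it has been studied for the inheritance of changes made by stress or diet in the germ cells of the father.

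The arrays fell into sets that the labels do not name. Over 5591 probe sets that have no gene in the annotation, the leading principal component held 48.6% of the variance and divided the 48 arrays into 18 (set A) and 30 (set B). Each genotype held 3 arrays of set A and 5 of set B here. In set A the 3 ATF7+/+ arrays stood apart on the second component, with ATF7+/- arrays at 0.14 to 0.20 and ATF7+/+ arrays at -0.32 to -0.27. Wild-type set A arrays of low-protein sires lay at 0.16 to 0.21, and in set B the 2 genotypes overlapped, at -0.05 to 0.02 in ATF7+/- and -0.01 to 0.02 in ATF7+/+. By their Y-linked genes, 5 of 8 ATF7+/- and 6 of 8 ATF7+/+ livers were Y-linked high. Set B held 3 high and 2 low arrays in each genotype, while in set A 2 of 3 ATF7+/- arrays and 3 of 3 ATF7+/+ arrays were high. Values in set A and set B are therefore given beside many of the differences below.

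The gene named in the genotype label was lower in ATF7+/- livers on both of its probe sets, and on 1 of them it passed the test. On the second probe set the 8 ATF7+/- livers read 7.45, 7.59, 7.85, 7.96, 8.06, 6.98, 7.93 and 7.97, and the 8 ATF7+/+ livers read 8.59, 8.55, 8.66, 8.40, 8.49, 8.87, 8.64 and 8.69. The groups did not overlap: the highest ATF7+/- liver lay below the lowest ATF7+/+ liver. Means were 7.72 ± 0.37 in ATF7+/- and 8.61 ± 0.14 in ATF7+/+ (SD, n = 8 each), a difference of -0.89 ± 0.13 (SE), which leaves 54.1% of the ATF7+/+ signal. With limma and Benjamini-Hochberg adjustment over all 13542 genes tested, the adjusted p was 0.000152. The lowest 3 values in ATF7+/- were all from set A, where the difference was -1.26 (adjusted p = 0.000301); set B gave -0.66 (adjusted p = 0.00128).

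On the first probe set of Atf7, the one with the higher signal, the gap was smaller. ATF7+/- livers ran from 8.38 to 8.88 with a median of 8.69, and ATF7+/+ livers from 8.87 to 9.17 with a median of 9.0. One ATF7+/- liver, at 8.88, reached into the range of the other group. The difference of -0.34 ± 0.08 did not pass over all genes (adjusted p = 0.301 with limma). In set A alone it was -0.48 (adjusted p = 0.0341), while set B alone gave -0.26 (adjusted p = 0.989).

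**Figure D1:**
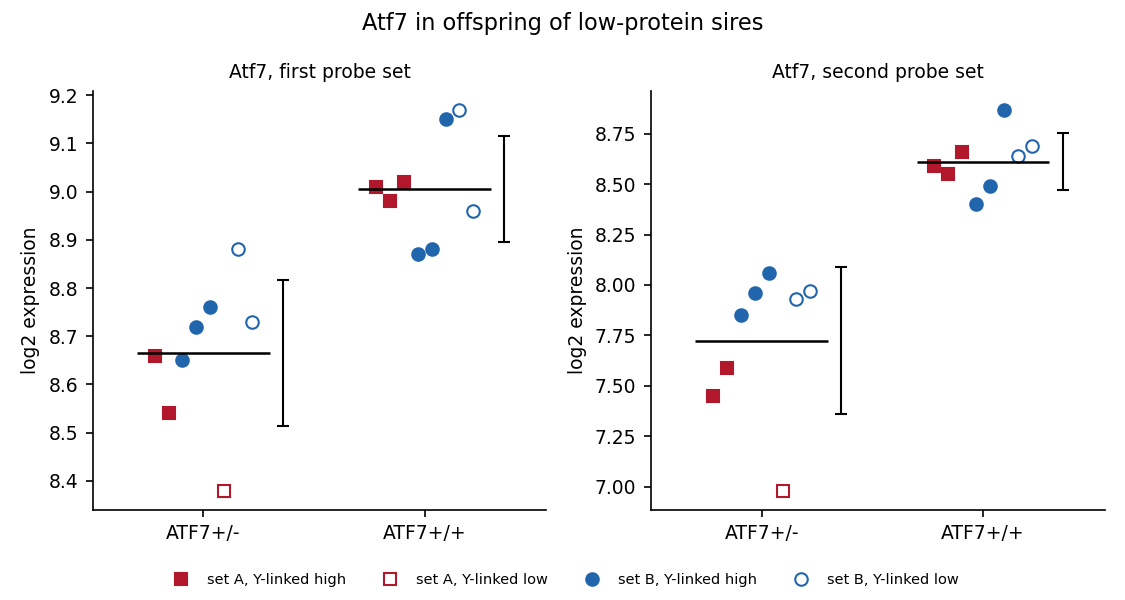
Log2 expression of Atf7 on its first (left) and second (right) probe set in each liver of offspring of low-protein sires, ATF7+/- left of ATF7+/+. Squares are set A arrays, circles are set B arrays, filled symbols have high Y-linked expression, horizontal lines are means and bars are SD; on the second probe set all 8 ATF7+/- livers lie below all 8 ATF7+/+ livers.

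Apart from the second Atf7 probe set, no gene passed between ATF7+/- and ATF7+/+ livers: 0 of 13542 genes (0%) reached an adjusted p of 0.05 with limma, and the smallest adjusted p was 0.213. At an unadjusted p under 0.05 there were 908 genes (6.71%), of which 499 (3.68%) were higher and 409 (3.02%) lower in ATF7+/-. Differences were small, with a median size of 0.07 and 77 genes (0.569%) beyond 0.5. Only 8 genes (0.0591%) differed by more than 1 on the log2 scale. In 2 genes (0.0148%) every ATF7+/- liver lay above every ATF7+/+ liver, and in 0 genes (0%) below.

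The 12 genes with the smallest p among those higher in ATF7+/- were Gdf2, Sult1d1, Mocs2, Asic5, Ccbe1, Rab20, Man1a, Cask, Rnf128, Armcx1, Kyat3 and Cyp39a1. Their differences lay between 0.26 and 0.67, and none passed, with adjusted p from 0.213 to 0.473. Gdf2 encodes BMP9, a liver-made ligand that acts on endothelial cells. Its values were 8.31, 8.19, 8.37, 8.02, 8.19, 8.42, 8.13 and 8.28 in ATF7+/- livers, against 7.91, 7.54, 7.82, 7.79, 7.90, 7.83, 7.99 and 8.07 in ATF7+/+ livers. Only 1 ATF7+/+ liver, at 8.07, reached the lowest ATF7+/- liver, at 8.02. The difference was 0.38 ± 0.08 (0.55 in set A, 0.28 in set B; adjusted p = 0.213 with limma).

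Sult1d1, a sulfotransferase whose substrates include dopamine, ran from 10.45 to 11.33 in ATF7+/- livers (median 10.95) and from 9.98 to 10.71 in ATF7+/+ livers (median 10.27). The groups overlapped at their edges. The difference of 0.61 ± 0.13 corresponds to 1.53-fold, with an adjusted p of 0.213, and it was 1.01 in set A versus 0.37 in set B. Mocs2, which encodes both subunits of molybdopterin synthase, ran from 9.06 to 9.35 in ATF7+/- livers and from 8.47 to 9.08 in ATF7+/+ livers, a difference of 0.34 ± 0.08 (adjusted p = 0.233). It was one of 2 genes (0.0148%) that passed when the array set was a block in the fit (adjusted p = 0.0146). The other, Ctsh, which encodes the lysosomal protease cathepsin H and was singled out after its values were seen, ran from 10.13 to 10.56 in ATF7+/- and from 9.65 to 10.41 in ATF7+/+ (0.51 in set A, 0.21 in set B; adjusted p = 0.0146 with the block, 0.473 without).

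Other genes of this set varied more between the array sets. Asic5, an ion channel gene of the acid-sensing family, averaged 6.26 ± 0.55 in ATF7+/- and 5.59 ± 0.23 in ATF7+/+. The 3 ATF7+/- arrays of set A read 7.34, 6.62 and 6.64 and were its highest, so the difference was 1.45 in set A versus 0.20 in set B. Cyp39a1, an oxysterol hydroxylase of bile acid synthesis, had nearly the same difference in both, 0.37 in set A versus 0.43 in set B. Its means were 10.12 ± 0.24 in ATF7+/- and 9.71 ± 0.21 in ATF7+/+. Rnf128, an E3 ubiquitin ligase, was one of the 2 genes without overlap, with a median of 10.16 in ATF7+/- and a highest value of 9.99 in ATF7+/+ (0.48 in set A, 0.18 in set B). The other, Spin1, a reader of histone methylation chosen after its values were seen, lay at 8.86 to 9.02 in ATF7+/- against 8.64 to 8.82 in ATF7+/+.

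The 12 genes with the smallest p among those lower in ATF7+/- were Atf7, Zfyve26, Stxbp3, Poc5, Nav2, Cbln3, Lasp1, Inhbe, Tsc22d2, Hyal3, Sap130 and Mapre3. Their differences lay between -0.87 and -0.23, and none passed. Inhbe encodes the subunit of activin E, a secreted protein of hepatocytes, and had the widest gap of these. Its values were 7.81, 7.59, 8.35, 9.56, 8.97, 7.54, 8.96 and 7.86 in ATF7+/- livers, against 9.25, 8.82, 8.77, 9.47, 9.53, 9.86, 8.84 and 9.09 in ATF7+/+ livers. Of the ATF7+/- livers, 5 of 8 lay below every ATF7+/+ liver and 3 reached into the ATF7+/+ range. The difference was -0.87 ± 0.25, or 54.6% of the ATF7+/+ signal (adjusted p = 0.473 with limma), and it was -1.30 in set A versus -0.62 in set B.

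Stxbp3, a Sec1/Munc18 protein of vesicle fusion, and Lasp1, an actin-binding protein, differed mostly in set A. Stxbp3 differed by -0.71 in set A versus -0.09 in set B, and Lasp1 by -0.73 and -0.14. Tsc22d2, Poc5, a centriole protein, and Cbln3, a cerebellin, held more even values, at -0.30, -0.27 and -0.42 in set A against -0.20, -0.20 and -0.27 in set B. Sap130, a subunit of the Sin3 histone deacetylase complex, averaged 8.70 ± 0.29 in ATF7+/- and 9.06 ± 0.09 in ATF7+/+ (-0.57 in set A, -0.24 in set B).

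**Figure D2:**
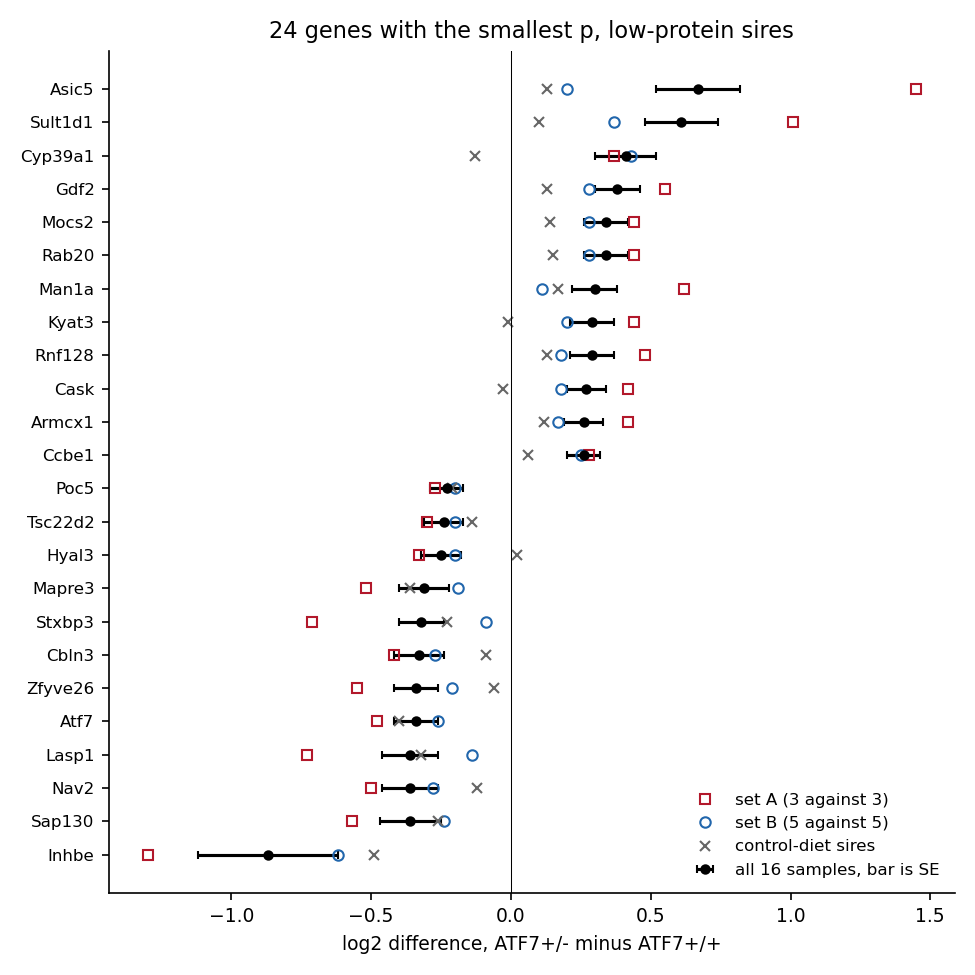
Log2 difference, ATF7+/- minus ATF7+/+, for the 24 genes with the smallest p in offspring of low-protein sires, 12 higher and 12 lower. Black points are all 16 samples with SE bars, squares are set A, circles are set B and crosses are the same genotype difference in control-diet sires' offspring; in Asic5, Sult1d1 and Inhbe the set A value lies farthest from 0.

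**Figure D3:**
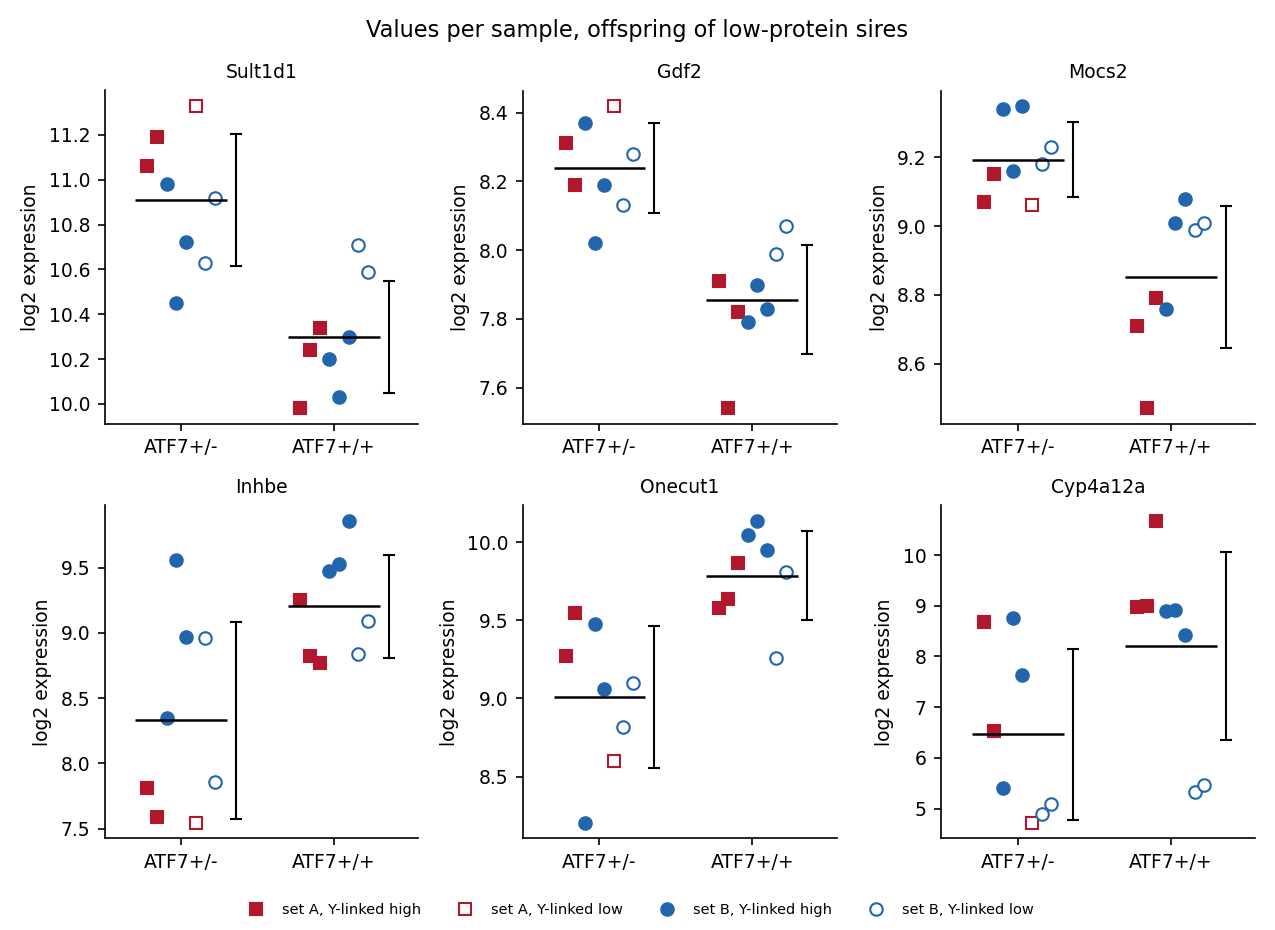
Log2 expression per liver of Sult1d1, Gdf2, Mocs2, Inhbe, Onecut1 and Cyp4a12a in offspring of low-protein sires, ATF7+/- left of ATF7+/+. Squares are set A, circles are set B, filled symbols have high Y-linked expression, lines are means and bars SD; Cyp4a12a is above 8 in all 6 Y-linked high ATF7+/+ livers and in 2 of 5 Y-linked high ATF7+/- livers.

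The wild-type offspring of low-protein sires, which are neither of the groups compared, lay nearer to ATF7+/- than to ATF7+/+ in 20 of these 24 genes (83.3%). The 24 were picked by their difference between the 2 groups. The share was 75.4% among the 908 genes at an unadjusted p under 0.05 and 61.3% of all genes tested. Gdf2 averaged 8.24 in ATF7+/-, 7.86 in ATF7+/+ and 8.24 in wild-type livers. Inhbe averaged 8.33 in ATF7+/-, 9.20 in ATF7+/+ and 8.29 in wild-type livers. In these 2 genes the ATF7+/+ livers stood away from the other groups. The 4 genes with wild-type livers nearer to ATF7+/+ were Asic5, Cbln3, Hyal3 and Stxbp3; Asic5, for example, averaged 6.26 in ATF7+/-, 5.59 in ATF7+/+ and 5.73 in wild-type livers. In set A wild-type livers were nearer to ATF7+/- in 70.0% of all genes, in 80.3% of the 908 and in 21 of the 24. In set B the values were 53.5%, 55.1% and 15 of the 24. Atf7 itself was intermediate on its second probe set, at 7.72 in ATF7+/-, 8.61 in ATF7+/+ and 8.31 in wild-type livers.

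The 8 genes that differed by more than 1 were Ciart, Cyp17a1, Cyp2b13, Snord73b and Sult2a3, higher in ATF7+/-, and Cyp4a12a, Cyp4a12b and Serpina4-ps1, lower. They were picked by the size of their difference and none passed. Several belong to the genes that differ between the sexes in adult mouse liver, so they are given by Y-linked status. Cyp4a12a, a fatty acid hydroxylase that is male-predominant in adults, ran from 5.40 to 8.75 (median 7.64) in the 5 Y-linked high ATF7+/- livers and from 8.42 to 10.68 (median 8.94) in the 6 Y-linked high ATF7+/+ livers. In Y-linked low livers it ran from 4.71 to 5.09 in 3 ATF7+/- animals and was 5.33 and 5.46 in 2 ATF7+/+ animals. Among Y-linked high livers of set B the values were 5.40, 8.75 and 7.64 in ATF7+/-, against 8.90, 8.92 and 8.42 in ATF7+/+.

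Cyp2b9, Sult2a3 and Cyp17a1, higher in adult females, had higher medians in Y-linked high ATF7+/- livers than in Y-linked high ATF7+/+ livers, of which 3 of 6 were the set A arrays that stood apart. Cyp2b9, a P450 of the phenobarbital-responsive family, ran from 12.51 to 12.87 in Y-linked high ATF7+/- livers and from 11.66 to 12.60 in Y-linked high ATF7+/+ livers. Sult2a3, a hydroxysteroid sulfotransferase, ran from 4.22 to 6.61 in those ATF7+/- livers and from 3.22 to 4.06 in those ATF7+/+ livers. All of those ATF7+/+ values lay under 5.46, the mean over all arrays that a gene needed to be tested. Cyp17a1, which makes precursors of androgens, ran from 9.22 to 11.21 in those ATF7+/- livers and from 8.36 to 9.79 in those ATF7+/+ livers. Over all livers the differences were wider in set A: 0.75 in set A versus 0.08 in set B for Cyp2b9, 1.88 versus 0.86 for Sult2a3 and 1.88 versus 0.63 for Cyp17a1. Among Y-linked high livers of set B, Cyp2b9 read 12.87, 12.6 and 12.51 in ATF7+/-, against 12.5, 12.41 and 12.6 in ATF7+/+. Sult2a3 read 6.61, 4.61 and 5.48 there in ATF7+/-, against 3.93, 3.64 and 4.06 in ATF7+/+. In Y-linked low livers Sult2a3 and Cyp17a1 overlapped between the genotypes, at 5.55 to 7.21 and 10.40 to 11.49 in ATF7+/-, against 6.39 to 7.12 and 11.05 to 11.07 in ATF7+/+. These livers were grouped by their own Y-linked signal, the array sets differ in their share of such livers, and no test was made within them. The whole list mixes genes higher in adult males with genes higher in adult females, so its median cannot show a shift of either kind. Over its 18 sex-biased genes the median difference was -0.15 (-0.28 in set A, 0.06 in set B). It was -0.23 without ATF7+/- replicate 3, -0.10 without ATF7+/- replicate 2, -0.02 with array weights, a fit that gives less weight to the more variable arrays, and -0.01 with the filter on mean level at the 60th percentile.

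Gene lists are described by their median difference and their counts, beside a median of 0.00 and 49.0% of genes above 0 over all genes tested. No member of any list passed in the comparison of all 16 livers, so the values below are levels and differences that did not pass.

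Circadian clock genes had a median difference of 0.31, with 14 of 18 above 0. It was 0.45 in set A versus 0.14 in set B, and 0.15 with array weights. Cry2, a repressor of the clock, averaged 7.98 ± 0.18 in ATF7+/- and 7.64 ± 0.32 in ATF7+/+ (0.55 in set A, 0.20 in set B). Usp2, a deubiquitinase with a daily rhythm, ran from 7.59 to 9.61 in ATF7+/- and from 6.59 to 9.55 in ATF7+/+, where the next highest liver read 7.28; its difference was 1.38 in set A versus 0.50 in set B. The single high liver of each group was the ATF7+/- replicate 8 and the ATF7+/+ replicate 6, and without them in turn the list's median was 0.21 and 0.37. The labels give no time of day of collection.

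Heat shock chaperones were above 0 in 13 of 13 genes, with a median of 0.18 (0.33 in set A, 0.07 in set B). Dnaja1, a co-chaperone of HSP70, differed by 0.77 in set A versus 0.07 in set B. Chaperones of the endoplasmic reticulum had a median of 0.15 (0.27 in set A, 0.07 in set B), with 15 of 18 above 0. Xbp1, a transcription factor of the unfolded protein response, lay on the other side, at 10.78 ± 0.07 in ATF7+/- and 10.98 ± 0.08 in ATF7+/+ (difference -0.20, with -0.21 in set A versus -0.19 in set B; adjusted p = 0.724).

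Genes of the urea cycle and of amino acid breakdown were above 0 in 15 of 16, with a median of 0.14 (0.27 in set A, 0.07 in set B). Asl, argininosuccinate lyase of the urea cycle, averaged 10.88 ± 0.33 in ATF7+/- and 10.33 ± 0.35 in ATF7+/+, a difference of 0.55 ± 0.17 (0.97 in set A, 0.31 in set B; adjusted p = 0.482). For the difference between sire diets, 2 of the 16 members had an unadjusted p under 0.05, as did 2.81% of all genes, and 0 passed.

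Cell cycle genes were below 0 in 19 of 22, with a median of -0.22 that was alike in the array sets, -0.20 in set A versus -0.21 in set B. In set A 15 of 22 were below 0, and in set B 20 of 22. The median was -0.15 with array weights. In control-diet sires' offspring it was 0.02, with 12 genes above 0 and 10 below. Plk1, a mitotic kinase, averaged 6.70 ± 0.47 in ATF7+/- and 7.27 ± 0.40 in ATF7+/+. Kif20a, a kinesin of cytokinesis, averaged 6.14 ± 0.44 in ATF7+/- and 6.69 ± 0.40 in ATF7+/+. None of the 22 had an unadjusted p under 0.05. The spread inside each group was as wide as the gap: the mean over the list ran from 6.42 to 7.03 in ATF7+/- livers and from 6.54 to 7.28 in ATF7+/+ livers. Leaving out each liver in turn gave medians of -0.28 to -0.17.

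The lipid lists were close to 0. Cholesterol synthesis and uptake had a median of -0.02 (7 of 19 above 0), and fatty acid and triglyceride synthesis -0.05 (7 of 22 above 0). In set B 21 of 22 genes of fatty acid and triglyceride synthesis were below 0, with a median of -0.13, and in set A 12 of 22 were above 0. Srebf1, the lipogenic transcription factor, averaged 10.13 ± 0.37 in ATF7+/- and 9.72 ± 0.28 in ATF7+/+, with differences of 1.05 in set A versus 0.03 in set B. Plin2, a lipid droplet coat protein, and Fgf21, a fasting hormone, were lower in ATF7+/- by differences of -0.31 and -0.52 that did not pass. Both gaps were wider in set A, at -0.61 in set A versus -0.14 in set B for Plin2 and -1.06 versus -0.20 for Fgf21. These 2 genes belong to another list, of PPARA targets and fasting signals, with a median of 0.06 and 13 of 19 above 0. In that list Acot3 and Acot4 went the other way, by 0.69 and 0.36, and did not pass either.

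Within the growth hormone axis, whose median was -0.01, 2 of 15 genes were lower at an unadjusted p under 0.05. Over all genes 3.02% were. The highest member, Igfbp1, differed by 0.56 (0.97 in set A, 0.31 in set B) and did not pass. Onecut1, also called HNF6, is a hepatocyte transcription factor that growth hormone is known to induce. Its values were 9.27, 9.55, 8.2, 9.48, 9.06, 8.60, 8.82 and 9.10 in ATF7+/- livers, against 9.58, 9.64, 9.87, 10.05, 10.14, 9.95, 9.26 and 9.81 in ATF7+/+ livers. One ATF7+/+ liver, at 9.26, lay inside the ATF7+/- range. Its difference was -0.78 ± 0.23 (-0.56 in set A, -0.91 in set B; adjusted p = 0.473).

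Cish, a STAT5-induced inhibitor of cytokine signalling, ran from 6.93 to 8.17 in ATF7+/- (median 7.76) and from 7.81 to 8.93 in ATF7+/+ (median 8.32). Its difference was -0.65 ± 0.22 (-0.62 in set A, -0.67 in set B; adjusted p = 0.55). In control-diet sires' offspring the genotype difference had the other sign in both genes, at 0.19 for Onecut1 and 0.36 for Cish. The difference between the diets did not pass for either gene (adjusted p = 1.0).

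In the list of cytochrome P450 families 1 to 3, 6 of 29 genes were higher in ATF7+/- at an unadjusted p under 0.05, where 3.68% of all genes were, and 0 were lower. Cyp3a13 averaged 10.33 ± 0.18 in ATF7+/- and 9.84 ± 0.29 in ATF7+/+, with 0.68 in set A versus 0.38 in set B. Cyp2b9 and Cyp2b13 are both in this list and among the sex-biased genes. Of the acute phase proteins, Orm1 averaged 10.55 ± 0.45 in ATF7+/- and 11.54 ± 0.39 in ATF7+/+, a difference of -0.99 (-1.69 in set A, -0.58 in set B; adjusted p = 0.543), against a list median of 0.04.

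Single members of other lists with an unadjusted p under 0.05 had these values. Klb, a co-receptor of endocrine fibroblast growth factors, averaged 9.40 ± 0.06 in ATF7+/- and 9.15 ± 0.16 in ATF7+/+ (0.39 in set A, 0.16 in set B). Mthfd2, an enzyme of mitochondrial folate metabolism, averaged 6.23 ± 0.14 in ATF7+/- and 6.66 ± 0.41 in ATF7+/+ (-0.68 in set A, -0.28 in set B). Oas1a, an interferon-stimulated gene, differed by -0.31, and its set B value of -0.40 was the larger one. Tfrc, the transferrin receptor, averaged 7.91 ± 0.69 in ATF7+/- and 7.24 ± 0.30 in ATF7+/+, so its SD within ATF7+/- was about as wide as the gap. Gpc3, a glypican of fetal liver, differed by 1.42 in set A but by 0.21 in set B. The process lists not described otherwise had medians between -0.09 and 0.14.

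The partners of ATF7 were near 0 as a group. The list of the ATF2 family, p38 kinases and AP-1 partners had a median of 0.01. Of its 22 genes 6, Atf7 included, had an unadjusted p under 0.05, 3 higher and 3 lower in ATF7+/-, against 6.71% of all genes. Map2k6, the kinase that activates p38, averaged 6.65 ± 0.38 in ATF7+/- and 6.17 ± 0.26 in ATF7+/+ (0.93 in set A, 0.20 in set B). Mapk14, which encodes p38 alpha, averaged 9.03 ± 0.09 in ATF7+/- and 8.89 ± 0.07 in ATF7+/+. Jun, a leucine zipper partner, averaged 7.17 ± 0.20 in ATF7+/- and 7.55 ± 0.31 in ATF7+/+ (-0.67 in set A, -0.20 in set B). Genes of histone H3 lysine 9 methylation and heterochromatin had a median of -0.01 over 16 genes; Kdm4b, a demethylase of that residue, averaged 7.68 ± 0.06 in ATF7+/- and 7.54 ± 0.09 in ATF7+/+.

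**Figure D4:**
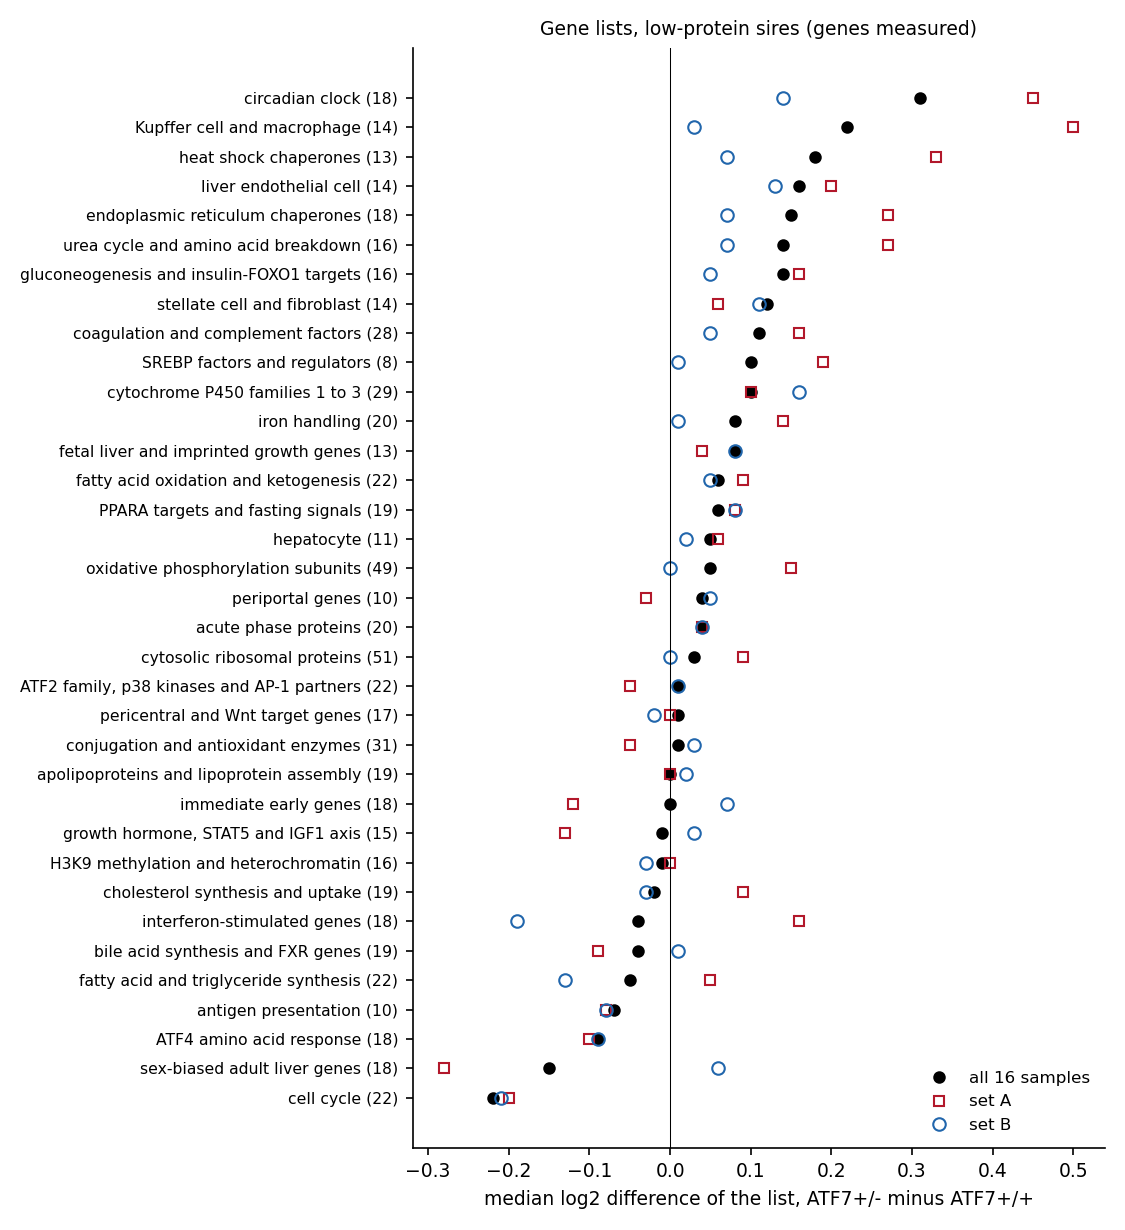
Median log2 difference, ATF7+/- minus ATF7+/+, of each gene list with at least 8 measured genes, offspring of low-protein sires. Black points are all 16 samples, squares set A and circles set B; the clock list is highest at 0.31 and the cell cycle list lowest at -0.22.

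Markers of Kupffer cells and of liver endothelial cells also lay above 0. In bulk liver, fewer cells of a type and less RNA per cell cannot be told apart. Kupffer cell and macrophage markers were above 0 in 14 of 14, with a median of 0.22, but of 0.50 in set A versus 0.03 in set B. Their median was 0.11 without ATF7+/+ replicate 2, a set A array, and 0.01 with array weights. Their mean level ran from 8.63 to 9.08 in ATF7+/- livers and from 8.08 to 8.93 in ATF7+/+ livers, and the 3 lowest ATF7+/+ livers were the set A arrays, at 8.08 to 8.37. Markers of liver endothelial cells were above 0 in 14 of 14 as well, with a median of 0.16 (0.20 in set A, 0.13 in set B; 0.10 with array weights). Pecam1, an endothelial adhesion molecule, averaged 7.55 ± 0.13 in ATF7+/- and 7.29 ± 0.20 in ATF7+/+. Stellate cell and fibroblast markers were above 0 in 9 of 14 and below 0 in 5, the lowest at -0.12, with a median of 0.12 that was 0.07 without ATF7+/+ replicate 4. Of these Colec11, a collectin used as a stellate cell marker, averaged 8.35 ± 0.14 in ATF7+/- and 8.12 ± 0.15 in ATF7+/+.

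Hepatocyte markers, which check the labelled tissue, were high in every liver, at a mean level of 12.65 to 12.85 in ATF7+/- and 12.61 to 12.76 in ATF7+/+. Their median difference was 0.05. Markers of granulocytes, lymphocytes, erythroid cells, cholangiocytes, pancreas and gut, skeletal muscle, and adipose tissue and mesothelium had medians between -0.08 and 0.09. The median of the Y-linked genes was -0.48 (-1.25 in set A, 0.02 in set B). No array value has a true zero, so no marker can be called absent. The part of the other cell types in the gene differences above was not tested.

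The same genotype comparison in offspring of control-diet sires also gave 0 of 13542 passing genes (0%), with 914 (6.75%) at an unadjusted p under 0.05. That comparison held 15 samples, since a pair of near-identical ATF7+/+ arrays was averaged. The second Atf7 probe set averaged 7.72 in ATF7+/- and 8.72 in ATF7+/+ there, a difference of -1.0 ± 0.13 (adjusted p = 1.83e-05 with limma). With set A alone 1262 genes (9.32%) passed there, with set B alone 2 (0.0148%), and 10 (0.0738%) in the fit blocked by array set. Of the genes at an unadjusted p under 0.05 over all arrays, 137 had the same sign in both diets, which is 15.1% of the low-protein and 15.0% of the control-diet genes. The 2 comparisons share no array, but both span the same array sets. They also share the estimate of each gene's spread, taken from all 6 groups, so their p-values are not independent. In set A the 3 control-diet ATF7+/+ arrays also stood apart on the second component, at -0.35 to -0.22. Control-diet ATF7+/- arrays of set A lay at 0.02 to 0.22 and wild-type ones at 0.07 to 0.23. Genotype and whatever else marks the ATF7+/+ arrays of set A cannot be told apart in either diet. With set A alone, where 26.2% of genes in the low-protein and 24.9% in the control-diet comparison had an unadjusted p under 0.05, the shared genes made up 43.8% and 46.1% of these. With set B alone, where 4.7% and 8.06% did, they made up 7.8% and 4.6%. Across genes, which are not independent replicates, the differences correlated with r = 0.44 over all arrays, 0.62 in set A versus 0.10 in set B.

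No gene passed the direct test of whether the genotype difference differed between the sire diets: 0 of 13542 (0%), 380 (2.81%) had an unadjusted p under 0.05, and the smallest adjusted p was 0.958. The 5 genes with the smallest p in that test were Rb1cc1, Plscr4, Wfdc13, Dgcr8 and Mr1. Rb1cc1, a scaffold of autophagy initiation, differed by 0.17 in offspring of low-protein sires and by -0.27 in those of control-diet sires, with 0.39 in set A versus 0.04 in set B in the low-protein comparison. Cholesterol synthesis genes had a median of -0.02 with low-protein sires and of 0.42 with control-diet sires, where 19 of 19 were above 0. The control-diet median was 0.75 in set A versus 0.21 in set B. In the test of the difference between diets, 6 of these 19 genes had an unadjusted p under 0.05, against 2.81% of all genes, and none passed.

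The array sets gave different counts within the low-protein comparison. With set A alone, 3 ATF7+/- against 3 ATF7+/+ livers, 1218 genes (8.99%) passed, 811 (5.99%) higher and 407 (3.01%) lower in ATF7+/-. With set B alone, 5 against 5, 0 genes (0%) passed and 637 (4.7%) had an unadjusted p under 0.05. Of the 1218 genes, 720 (59.1%) had the same sign in set B, and 42 (3.45%) also had an unadjusted p under 0.05 there. Across genes the differences of the 2 sets correlated with r = 0.15. Set A is the set whose ATF7+/+ arrays stood apart and were all Y-linked high. The 2 Y-linked high ATF7+/- arrays of that set lay at 0.138 and 0.165 on the second component, and the 3 ATF7+/+ arrays at -0.32 to -0.27. The part of Y-linked status in this gap was not tested. Genotype and whatever else marks those 3 ATF7+/+ arrays cannot be told apart in set A.

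Some genes were then picked for holding one sign. Of the 13542 genes, 22 had an unadjusted p under 0.05 with one sign in the low-protein comparison, in its set B alone and in the control-diet comparison, and 20 of them, Atf7 included, had that sign in each diet and array set. The choice by sign largely fixes that count, so it is given as a description. Among them Nipal1, a magnesium transporter gene chosen here after its values were seen, averaged 7.88 ± 0.58 in ATF7+/- and 7.35 ± 0.31 in ATF7+/+, with 0.52 in set A versus 0.53 in set B. Colec11 and Cfi, which encodes complement factor I, were also in this group, with differences of 0.22 and 0.16. None of these passed over all genes except the second probe set of Atf7.

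**Figure D5:**
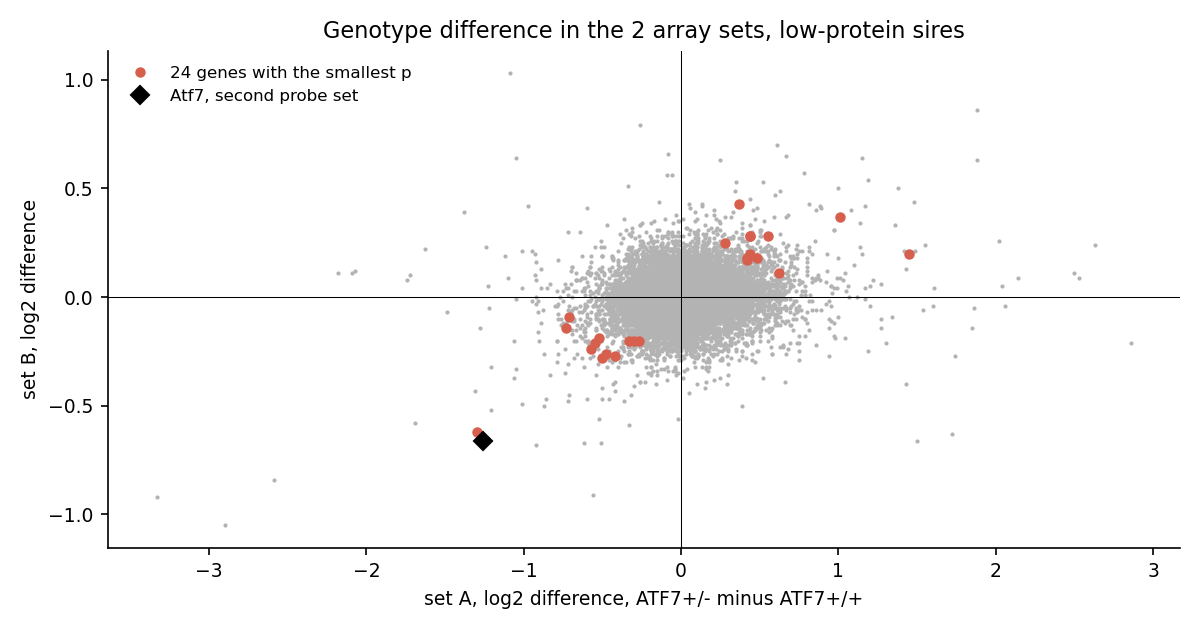
Log2 difference, ATF7+/- minus ATF7+/+, in set A (horizontal) and set B (vertical) for all 13542 genes tested in offspring of low-protein sires. Red points are the 24 genes with the smallest p, and the diamond is the second Atf7 probe set, at -1.26 and -0.66.

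Genes beside Atf7 on chromosome 15 were set beside it. Of the 34 tested genes nearest to it in the GRCm38.p6 gene order, 0 passed and 2 (5.9%) had an unadjusted p under 0.05, against 6.71% of all genes. Both were lower in ATF7+/-: Krt18, a keratin of hepatocytes, at -0.37, and Espl1, the separase of mitosis, at -0.22. Over the 34 genes the median was -0.05, with a range of -0.43 to 0.13. Of them 24 were below 0 and 10 above, where 49.0% of all genes tested were above 0. The lowest was Aaas, at -0.62 in set A versus -0.32 in set B.

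ATF7 binds sites like the cAMP response element, so promoters were searched for the 8 letters TGACGTCA, which read the same on both strands, from 250 bases before to 50 after each gene start (RefSeq, GRCm38.p6). Of 10761 tested genes with a promoter, 352 (3.27%) held it. The share was 4 of 381 (1.05%) among genes higher in ATF7+/- at an unadjusted p under 0.05 and 11 of 331 (3.32%) among those lower. Of the 24 genes with the smallest p, 19 had a promoter and 1, Stxbp3, held the letters. Its match begins 108 bases before the start, on the minus strand. The 88 bases at chr3:108840563-108840650 that hold it are shown, with the 8 matching letters in capitals, because it was the single one among those genes.
Stxbp3: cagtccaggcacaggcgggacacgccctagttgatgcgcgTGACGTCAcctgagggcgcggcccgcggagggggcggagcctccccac
A match of letters is a description of the sequence and shows no binding.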

How the data were processed

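Biotin-labelled cDNA from liver RNA was hybridised to Affymetrix arrays. The deposited log2 values, 1 per probe set and array, come from RMA; the submitters' processing notes name RMA and Affymetrix Expression Console as what the authors used, and versions and genome build are not given in the sources used here. They were used as deposited. Arrays have no depth per sample, and their number limits the precision.

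Of 35556 probe sets, 21789 carried 1 gene symbol, 1621 several and 12146 were not listed. Probe sets with 1 symbol and a mean at or above the 40th percentile (5.46) were kept, each gene was represented by its highest-mean probe set, and the second Atf7 probe set was added. Array pairs with near-identical profiles were averaged (2 pairs), leaving 46 samples. The pairs were wild-type and ATF7+/+ arrays of control-diet sires' offspring, so none lay in the low-protein groups. The control-diet comparison therefore held 15 samples. Group means of all 6 groups were fitted with limma 3.58.1 in R 4.3.3 (files were read with the data.table package, version 1.17.8), two-sided, with Benjamini-Hochberg adjustment over 13542 genes and a threshold of 0.05. Contrasts were the genotype difference in each sire diet and the difference between them. Named genes were the 12 smallest p in each direction, the 5 smallest for the difference between diets, up to 4 members of each list, and Atf7; others are marked as chosen after their values were seen.

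Same-numbered low-protein samples of the 2 genotypes correlated with r from 0.29 to 0.62 where both arrays lay in the same set. Replicates 3 and 6, whose arrays lay in different sets, gave -0.47 and -0.49. Deviations were taken from group means over both sets, so these values cannot show whether the numbers mark pairs. The labels call the arrays separate experiments, so the main fit used no pairs. Members, lists and array sets were chosen with earlier results of these data known, and the lists have no test of their own. Alternatives covered the filter, normalization, probe sets, variance prior, array weights, samples in the fit, blocks, the Y-linked covariate, each array set alone and each sample left out. The fit was tested on simulated data. Figures used matplotlib 3.10.9 in Python 3.11.15 (pandas 2.3.3).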

Additional observations from a re-analysis of the deposited data

Results flagged for a closer look

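In 15 of 228 sets of 8 values (114 genes in 2 groups), 1 liver lay far from the other 7; chance flags about 1 in 20 sets. In ATF7+/- livers, replicate 8 had the lowest Cenpf (5.05) and Cyp2c55 (6.32) and the highest Cry1 (7.82), Fos (5.98), Kdm4b (7.81) and Usp2 (9.61). Other ATF7+/- livers were replicate 6 for Mapre3 (8.12), replicate 7 for Poc5 (6.31) and replicate 1 for Spin1 (9.02). In ATF7+/+ livers, replicate 6 had the highest Ciart (8.81), Cry2 (8.33), Tef (8.63) and Usp2 (9.55), all clock or clock output genes. Replicate 2 had the lowest Cfi (11.17) and replicate 7 the highest Kyat3 (10.97).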

How the results depend on the processing

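In the low-protein comparison the count of passing genes, 0 as reported, was 1 when each gene was the mean of its probe sets (Atf7), 2 with the array-set block, 4 with that block and the Y-linked covariate (Mocs2, Ctsh, Sult1d1 and Acy1) and 1218 in array set A alone. It was 0 in every other fit run, including each sample left out and the replicate block. The mean of both Atf7 probe sets passed with limma (-0.61, adjusted p = 0.000969). The first probe set by itself passed only in set A alone (-0.48, adjusted p = 0.0341). The second passed in every fit run, with adjusted p up to 0.0281 when only the 2 groups were fitted. With the replicate block its adjusted p was 0.000452, and that of the first probe set 0.405. The control-diet comparison, at 0, gave 1 with gene means over probe sets, 13 with array weights, 10 with the array-set block, 6 with that block and the covariate, 1262 in set A, 2 in set B and 3 with all 48 arrays. Leaving out each sample there gave 0 to 4 genes: 4 without ATF7+/+ replicate 6, 1 without ATF7+/+ replicate 5 and 1 without ATF7+/- replicate 8. The difference between diets gave 0 in every fit run. Mr1 was 0.29 in set A alone, against -0.14 in all samples. The cause of these changes was not tested.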
